A study of Mus musculus with 6 samples.

Results

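The genes described here form the receptor pathway of interleukin-7 (IL-7) and interleukin-2 (IL-2). They were chosen by name: the receptor chains *Il7r*, *Il2ra* and *Il2rg*, the kinases *Jak1* and *Jak3*, the transcription factors *Stat5a* and *Stat5b*, and the feedback inhibitors *Socs1*, *Socs3* and *Cish*. Earlier results of these data were known when these genes were chosen. A probe set, the group of array probes that reads 1 transcript, was a member where the platform annotation named exactly 1 of these 10 genes. This gave 17 of the 22690 probe sets, for 9 genes, of the 12394 genes that have a probe set naming 1 gene. No probe set of the annotation used here names *Il2rg*, so it was not analysed here, and 2 probe sets that name *Jak3* together with *Insl3* were left out.

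IL-7 binds a receptor made of the IL-7 receptor α chain, encoded by *Il7r*, and the common γ chain, encoded by *Il2rg*. Their kinases JAK1 and JAK3 then phosphorylate STAT5A and STAT5B, which enter the nucleus and switch on survival genes together with *Cish* and *Socs* genes, whose products shut the receptor down again. Early thymocytes depend on IL-7 to survive and divide, and *Il2ra*, the α chain of the IL-2 receptor known as CD25, marks the double negative (DN) stages DN2 and DN3. The pathway carries activating mutations in part of human T-cell acute leukemia.

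RNA of thymus cells from untreated mice 3 weeks old, of the strain C57BL6, had been hybridized to 6 Affymetrix arrays, 1 RNA sample each. In 3 arrays the mice were labelled *Cd3e*-/- Sil-SCL Lck-LMO1, with the oncogenes *SCL* under the *Sil* promoter and *LMO1* under the T-cell promoter of *Lck*. In the 3 control arrays they were labelled *Cd3e*-/-, without transgenes. Both groups thus lack a working pre-T cell receptor, and their thymocytes stop at the DN3 stage. Whether each array stands for its own animal is not stated, so the p-values reflect spread among these samples that may be technical. In thymus RNA, fewer cells of a type and less RNA per cell cannot be told apart.

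*Lmo1*, the gene of one of the oncogenes, went against the labels, with values of 5.11, 5.07 and 4.86 in the *SCL-LMO1*-labelled arrays and 6.64, 6.84 and 6.77 in those labelled control (RMA expression, log2, in this and all later values). Every difference below is the *SCL-LMO1*-labelled arrays minus those labelled control, with the labels as they stand. This direction is opposite to the study's for *Il7r* and *Ets2* and for the marker genes *Lyl1*, *Hhex*, *Cpa3*, *Ptcra* and *Slc4a1* given further on. Whether the labels of both groups were exchanged was not tested, and an exchange would turn the sign of every difference printed here. *Tal1*, the mouse gene of SCL, was too dim to pass the filter, at 4.55 to 4.71 in the *SCL-LMO1*-labelled arrays against 4.27 to 4.44. *Cd3e* itself was read at 8.58 ± 0.06 against 8.52 ± 0.18 (SD, n = 3 each). *Xist*, of the inactive X chromosome, and *Eif2s3y*, of the Y chromosome, both gave signal in *SCL-LMO1* replicates 1 and 2. In control replicate 2 *Xist* was at 6.15 and *Eif2s3y* at 5.74, while the other controls had *Xist* at 11.06 and 10.91 and *Eif2s3y* at 3.15 and 2.85, so these sex-linked genes differed between arrays of the same label. Array medians lay between 5.57 and 5.70. The mean signal of 9 bacterial hybridization controls parted the arrays into a low set, *SCL-LMO1* replicates 2 and 3 with control replicate 1, and a high set, *SCL-LMO1* replicate 1 with control replicates 2 and 3. Of the DN3 marker genes, all 10 that have a probe set passed the filter on low values described next, and their mean level lay between 9.19 and 9.48 in the *SCL-LMO1*-labelled arrays and between 8.80 and 9.10 in the controls.

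*Il7r* and *Socs3* had the largest positive differences of the pathway, *Stat5a* and *Stat5b* the largest negative ones, and *Il2ra*, *Jak1* and *Jak3* lay near 0. None of the 15 member probe sets tested passed. The test was limma, a moderated linear model over the 13776 probe sets in which at least 3 of the 6 arrays reached the 40th percentile of their array, at a Benjamini-Hochberg adjusted p under 0.05. Of all probe sets tested, 0.102% passed (14, with 0.0508% higher and 0.0508% lower), and the lowest adjusted p among the members was 0.191. At an unadjusted p under 0.05, 5 members passed, 3 higher and 2 lower, where 8.86% of all probe sets did (6.18% higher and 2.67% lower). Rank products, the method that the study names, called 1 member at a percentage of false positives under 0.1, against 0.798% of all probe sets (0.356% higher and 0.443% lower). At the stricter level of 0.01, the one in the title of the published gene list, it called 0 members and 0.232% of all probe sets. The published list followed a filter on absent probe sets that was not repeated here, so the calls are not like for like.

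The 3 arrays of one label lay apart from the 3 of the other in 8 of the 15 member probe sets tested, 5 higher and 3 lower. Of all probe sets tested, 13.2% did so (7.36% with the *SCL-LMO1*-labelled arrays higher and 5.82% with them lower). The members were chosen with earlier results of these data known, so the shares are not an independent comparison. With 1 probe set of *Stat5a* below the filter, 9 of the 17 lay apart. The 9 come from 6 genes, *Il7r*, *Stat5a*, *Stat5b*, *Socs1*, *Socs3* and *Cish*. Probe sets of 1 gene read the same RNA and are not independent. The median difference of the 15 tested members was 0.0072, against -0.00061 over all probe sets tested, as higher and lower members balanced.

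**Figure D1:**
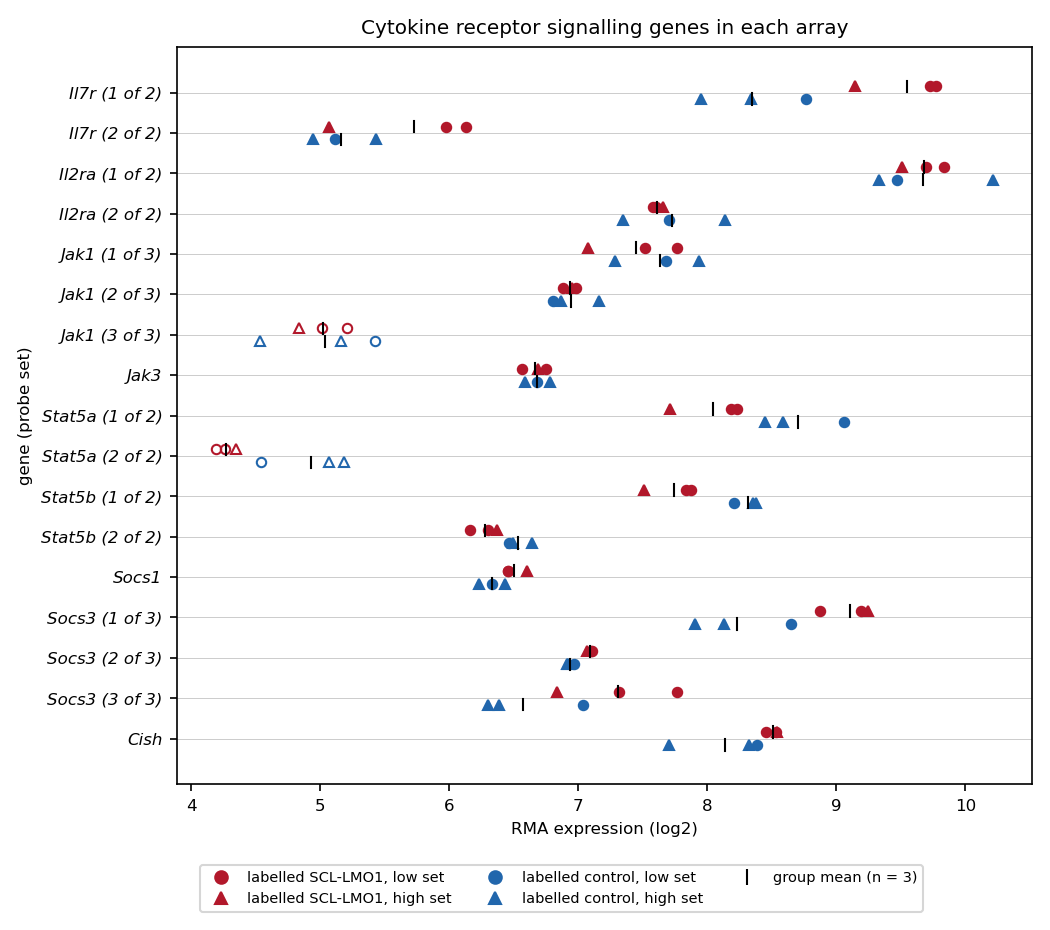
RMA expression (log2, x axis) of the 17 member probe sets (y axis, numbered by mean level within a gene) in each of the 6 arrays (red, SCL-LMO1 label; blue, control label), circles for the low and triangles for the high hybridization set, with black ticks for the group means (n = 3) and open symbols for 2 probe sets below the filter. The red and blue points do not overlap for the first probe set of Il7r, with means of 9.55 and 8.35, nor for any probe set of Stat5a and Stat5b.

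*Il7r* was an abundant transcript and higher on average in the *SCL-LMO1*-labelled arrays. At its brighter probe set (1448575_at) the values were 9.14, 9.77 and 9.72 in the *SCL-LMO1*-labelled arrays and 8.76, 8.34 and 7.95 in the controls. The groups did not overlap, and the probe set stood at percentile 88.4 or higher of every array. The difference was 1.20 (SE 0.24, 95% interval 0.65 to 1.74), or 2.29-fold, which ranked 23 from the top among the differences of the 13776 probe sets, but it did not pass over all probe sets (limma adjusted p = 0.191). Rank products called this probe set, at a percentage of false positives of 0.0148 on a scale where 1 is all.
The dimmer probe set of *Il7r* (1448576_at) read 5.07, 5.97 and 6.13 against 5.11, 5.43 and 4.94. Here *SCL-LMO1* replicate 1 lay among the controls, and the difference was 0.56 (SE 0.27, limma adjusted p = 0.576). It was 0.89 without that array and was 0.36 without *SCL-LMO1* replicate 3. Inside the low hybridization set the brighter probe set differed by 0.99 and inside the high set by 1.00, while the dimmer one differed by 0.94 and -0.12. With the array weights of limma, which gave *SCL-LMO1* replicate 2 a weight of 4.94 against 0.457 to 1.37 for the other arrays, the brighter probe set passed (adjusted p = 0.0103).

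Genes whose profile over the 6 arrays lay closest to that of *Il7r* were sought among 8689 other genes, each read by its brightest probe set, by the root mean square distance between profiles from which their own mean was taken. The closest were *Ets2*, which encodes an ETS family transcription factor, at a distance of 0.125 on the log2 scale, *Rad23b*, of nucleotide excision repair, at 0.151, *Tgfbr1*, a receptor of transforming growth factor β, at 0.153, *Mtm1*, a lipid phosphatase, at 0.171, and *Rbmxl1* at 0.180. All 5 had higher means in the *SCL-LMO1*-labelled arrays, by 1.34 for *Ets2* (limma adjusted p = 0.0588) and by 0.94 to 1.12 for the others. Genes picked for likeness to *Il7r* share its direction through the choice itself. The 6 arrays share labels and hybridization sets, so such likeness describes these arrays alone.

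The promoter window of *Il7r* is shown because it holds one of the few matches to the STAT binding motif among the members. The window runs from 250 bases before the RefSeq start to 50 bases after it (RefSeq, build GRCm38.p6, chr15:9529827-9530126, minus strand, written 5′ to 3′), with the match to TTCNNNGAA in capitals. The motif is its own reverse complement, so 1 search covers both strands.
Il7r: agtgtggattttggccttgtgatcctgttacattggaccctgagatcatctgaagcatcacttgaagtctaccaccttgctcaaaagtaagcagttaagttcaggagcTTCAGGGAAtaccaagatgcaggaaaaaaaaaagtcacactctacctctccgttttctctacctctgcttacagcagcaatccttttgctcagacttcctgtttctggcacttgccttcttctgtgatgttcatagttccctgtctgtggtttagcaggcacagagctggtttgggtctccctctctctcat
The match begins at position -142 from the start. Of 32851 promoter windows of the same length, 8.30% hold this motif. A match is a description of the letters and does not show binding.

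*Il2ra*, the CD25 marker, was among the brightest transcripts and gave no detectable difference. Its brighter probe set (1420692_at) read 9.51, 9.69 and 9.83 in the *SCL-LMO1*-labelled arrays and 9.47, 9.33 and 10.22 in the controls. The groups overlapped, with the controls spanning the others. The difference was 0.01 (SE 0.23, limma adjusted p = 0.993), with a 95% interval of -0.51 to 0.53. A difference of any size within that interval is not excluded by these arrays.
The other probe set of *Il2ra* (1420691_at) read 7.65, 7.58 and 7.60 against 7.70, 7.35 and 8.14, a difference of -0.12 (SE 0.20). The arrays labelled *SCL-LMO1* lay close together here (SD 0.04, n = 3) and the controls did not (SD 0.39, n = 3). The highest value of both probe sets was that of control replicate 3. The genes closest to *Il2ra* by the same distance were *Atg10*, *Car14*, *Ifih1*, *Odf2* and *H6pd*, at 0.0705 to 0.111, and their own differences lay between -0.03 and 0.05. Differences near that of *Il2ra* follow from how these genes were picked.

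**Figure D2:**
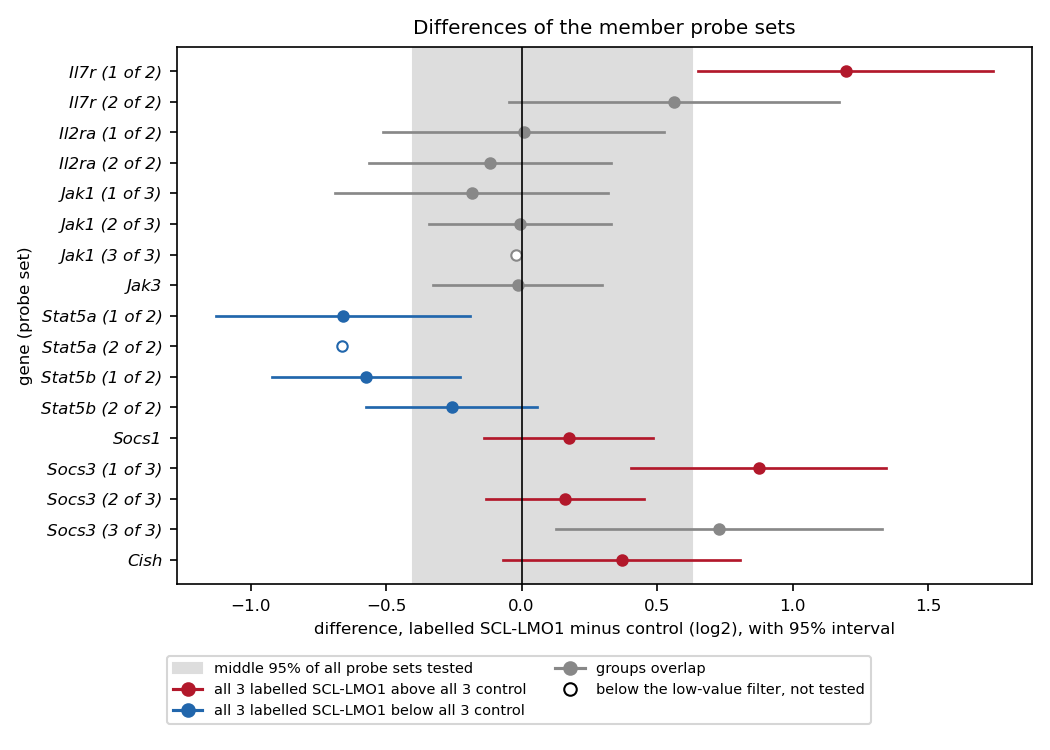
Difference of each member probe set (y axis), labelled SCL-LMO1 minus control (log2, x axis), with its 95% interval from limma, red and blue where the groups do not overlap, grey where they overlap, and open where not tested. The grey band spans the middle 95% of the differences of all probe sets tested, from -0.40 to 0.63; of the tested members, the first probe sets of Il7r, Stat5a, Stat5b and Socs3 and the last of Socs3 lie outside it.

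The receptor kinases differed by less than the spread between arrays. *Jak3*, whose product binds the common γ chain, read 6.69, 6.75 and 6.57 against 6.68, 6.59 and 6.78. The groups overlapped throughout, with a difference of -0.01 (SE 0.14, 95% interval -0.33 to 0.30, limma adjusted p = 0.972). *Jak1*, whose product binds the specific chains, read 7.07, 7.76 and 7.52 against 7.68, 7.94 and 7.28 at its brightest probe set (1433805_at), a difference of -0.18 (SE 0.22, limma adjusted p = 0.781). At the next (1433803_at) its means were 6.94 ± 0.05 and 6.94 ± 0.19 (SD, n = 3 each), and at the dimmest (1433804_at), below the filter and not tested, 5.02 ± 0.19 and 5.04 ± 0.46 (SD, n = 3 each).

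Both STAT5 genes were lower on average in the *SCL-LMO1*-labelled arrays, at every probe set and without overlap. *Stat5a* read 7.71, 8.19 and 8.23 against 9.06, 8.59 and 8.45 at its brighter probe set (1421469_a_at). The difference was -0.66 (SE 0.21, 95% interval -1.13 to -0.19), or 1.58-fold lower, which ranked 77 from the bottom among the 13776 differences, and did not pass (limma adjusted p = 0.434). Its dimmer probe set (1450259_a_at), below the filter and so not tested, read 4.35, 4.26 and 4.19 against 4.54, 5.07 and 5.18, also apart.
*Stat5b*, the close relative of *Stat5a*, read 7.51, 7.88 and 7.83 against 8.21, 8.35 and 8.38 at its brighter probe set (1422103_a_at). Every control lay above every other array, and the difference was -0.57 (SE 0.15, 95% interval -0.92 to -0.23, limma adjusted p = 0.321). At the dimmer probe set (1422102_a_at) the values were 6.37, 6.30 and 6.16 against 6.46, 6.50 and 6.64, which do not overlap either, with a smaller difference of -0.26 (SE 0.14, limma adjusted p = 0.604).
Without overlap, the sign within each hybridization set and with 1 array left out is fixed, so only the sizes are informative. The brighter probe set of *Stat5a* was at -0.86 (low set) and -0.81 (high set), and that of *Stat5b* at -0.36 and -0.86. With 1 array left out, the brighter *Stat5a* probe set ranged from -0.78 to -0.48 and that of *Stat5b* from -0.64 to -0.46.

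*Stat5b*, *Stat5a* and *Stat3* follow each other on chromosome 11 in the RefSeq gene order, and *Stat3*, which mainly serves receptors of the IL-6 family, was lower on average too. Its brightest probe set (1460700_at) read 8.08, 8.19 and 8.27 against 8.84, 8.69 and 8.54, a difference of -0.51 (SE 0.15, limma adjusted p = 0.367). A further one (1426587_a_at) read 6.93, 7.44 and 7.27 against 8.33, 7.92 and 8.17, without overlap and with a difference of -0.93 (SE 0.18, limma adjusted p = 0.177), and its remaining probe set, whose groups overlapped, differed by -0.19 (SE 0.18).
Of the 12 other protein-coding genes in the stretch that reaches 6 genes beyond *Stat5b* and *Stat3*, 10 have a probe set and 6 were tested. In none of these 6 did the groups lie apart, and their differences ran from -0.17 for *Atp6v0a1* to 0.43 for *Coasy*. This stretch was examined after the values of the STAT genes were seen.

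**Figure D3:**
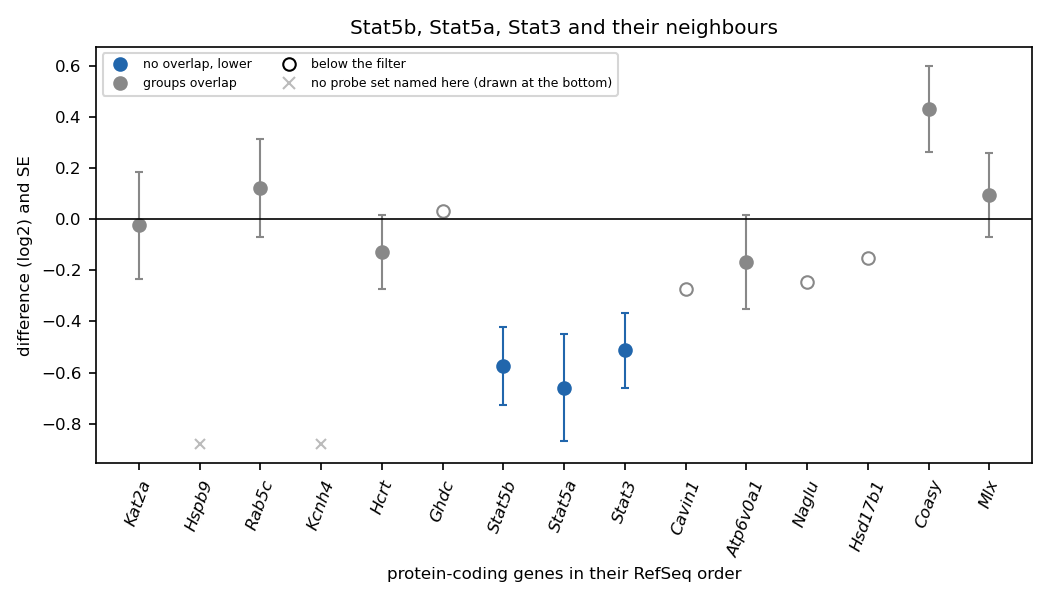
Difference (log2, y axis) and SE from limma for Stat5b, Stat5a, Stat3 and the 6 protein-coding genes on either side in RefSeq order (x axis, evenly spaced), each read by its brightest probe set, blue where the groups do not overlap, grey where they do, open where below the filter. Stat5b, Stat5a and Stat3 lie at -0.57, -0.66 and -0.51, and the 6 tested neighbours between -0.17 and 0.43.

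The 3 feedback inhibitors were higher on average in the *SCL-LMO1*-labelled arrays at each of their 5 probe sets, and none passed the test. *Cish*, a direct STAT5 target whose product masks STAT5 docking sites on the receptor, read 8.54, 8.45 and 8.54 against 8.39, 8.33 and 7.71. The groups did not overlap but lay close, and the difference of 0.37 (SE 0.19, limma adjusted p = 0.599) fell to 0.15 without control replicate 3. *Socs1*, whose product blocks JAK kinase activity, read 6.60, 6.46 and 6.45 against 6.33, 6.43 and 6.23, a difference of 0.17 (SE 0.14, limma adjusted p = 0.690) in groups that lay narrowly apart.
*Socs3*, whose product inhibits JAKs bound to receptors of the IL-6 family and to the receptor of granulocyte colony-stimulating factor, had the largest difference of the 3. Its brightest probe set (1455899_x_at) read 9.24, 8.87 and 9.19 against 8.65, 8.13 and 7.91, without overlap, a difference of 0.87 (SE 0.21, 95% interval 0.41 to 1.34), or 1.83-fold, with a limma adjusted p of 0.288. The probe set 1456212_x_at read 6.83, 7.31 and 7.77 against 7.04, 6.39 and 6.30, where control replicate 1 lay within the other group, a difference of 0.73 (SE 0.27, limma adjusted p = 0.487). At 1416576_at the values were 7.07, 7.11 and 7.10 against 6.97, 6.92 and 6.92, tight and apart, but the difference was 0.16 (SE 0.13, limma adjusted p = 0.695). The suffix x in the names of the former pair marks probes that can also bind other transcripts.
Within the low and high hybridization sets the brightest *Socs3* probe set differed by 0.38 and 1.23 and *Cish* by 0.11 and 0.52. With array weights that *Socs3* probe set passed (adjusted p = 0.0460).

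Neutrophil markers had higher levels under the same label as *Socs3*, which neutrophils also express. The mean level of the 13 neutrophil markers with a probe set lay between 6.51 and 7.17 in the *SCL-LMO1*-labelled arrays and between 5.65 and 6.29 in the controls. Of these 13, 7 had groups that did not overlap, all higher, where 13.7% of all genes lay apart in either direction. None passed limma (*S100a8*, a granule-associated calcium binding protein, by 2.09, limma adjusted p = 0.110). Rank products called 6 of the 13 higher, at 0.1 and at 0.01 alike. Of all probe sets, 0.356% were called higher at 0.1 and 0.232% in either direction at 0.01. *Elane*, *Csf3r* and *Cxcr2*, which define the lineage as well, differed by -0.12, -0.05 and -0.14. The mean difference of the list was 1.19 (low set) and 0.68 (high set). In the same order, *Socs3* differed by 0.38 and 1.23 at 1455899_x_at, 0.51 and 0.49 at 1456212_x_at, and 0.13 and 0.15 at 1416576_at. The part of neutrophil RNA in the *Socs3* values was not tested.

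The windows of *Socs3* and *Cish* are shown because both hold the STAT motif TTCNNNGAA, in capitals, and both genes had higher means. They are RefSeq promoter windows of build GRCm38.p6, at chr11:117969317-117969616 on the minus strand and at chr9:107296409-107296708 on the plus strand, written 5′ to 3′.
Socs3: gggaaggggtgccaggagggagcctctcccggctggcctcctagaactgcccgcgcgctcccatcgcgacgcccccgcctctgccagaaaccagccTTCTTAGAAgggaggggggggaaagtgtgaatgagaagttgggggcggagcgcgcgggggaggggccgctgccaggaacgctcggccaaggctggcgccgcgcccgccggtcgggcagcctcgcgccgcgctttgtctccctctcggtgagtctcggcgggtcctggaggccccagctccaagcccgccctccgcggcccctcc
Cish: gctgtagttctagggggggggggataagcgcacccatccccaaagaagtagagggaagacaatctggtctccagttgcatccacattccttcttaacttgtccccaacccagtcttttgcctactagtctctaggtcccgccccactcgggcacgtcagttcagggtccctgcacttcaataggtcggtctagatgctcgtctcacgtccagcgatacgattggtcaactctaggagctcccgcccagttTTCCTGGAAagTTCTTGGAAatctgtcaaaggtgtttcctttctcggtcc
The match of *Socs3* begins at position -154 from the RefSeq start and those of *Cish* at positions 1 and 12. A window with 2 or more matches, as that of *Cish*, is found in 0.457% of all 32851 windows. All 10 genes of the rule had a window, 12 in all, and 3 windows held a match, those of *Il7r*, *Socs3* and *Cish*. *Il2ra* and *Socs1* held none in these 300 bases, which says nothing of sites elsewhere.

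**Figure D4:**
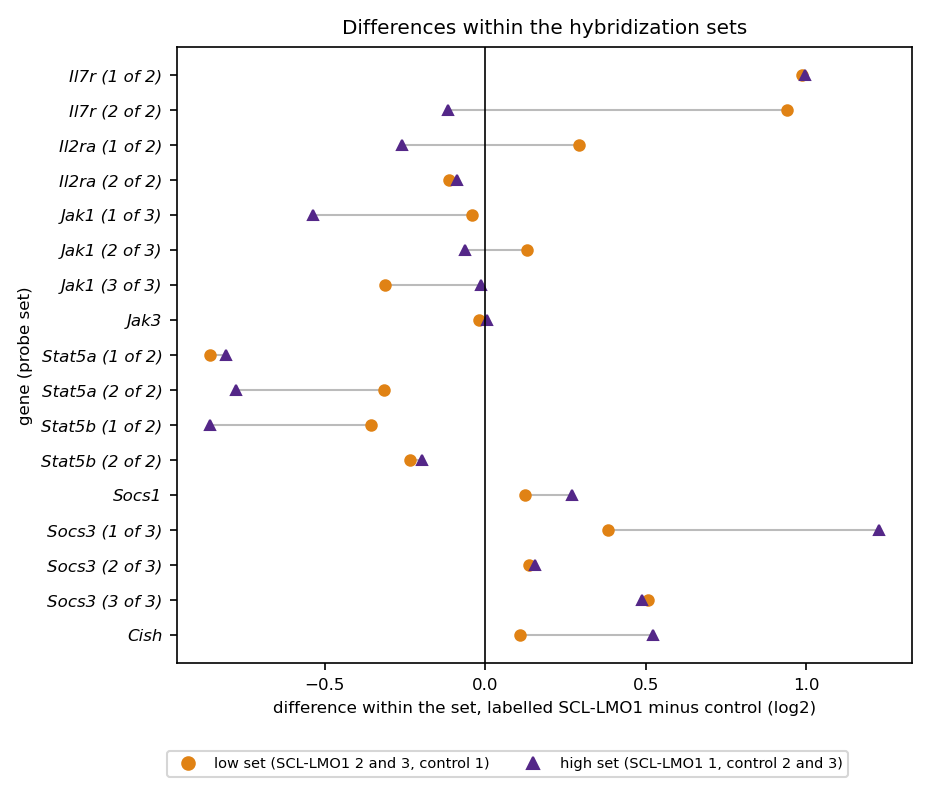
Difference of each member probe set (y axis), labelled SCL-LMO1 minus control (log2, x axis), within the low (orange circles) and the high (purple triangles) hybridization set. Of the 17 probe sets 13 have the same sign in both, which is fixed for the 9 whose groups do not overlap. The 4 others are the dimmer one of Il7r, the brighter one of Il2ra, the second of Jak1 and that of Jak3.

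Beyond the members, 94 genes around the receptor were listed by role, of which 88 have a probe set and 74 were tested, each read by its brightest probe set. None passed limma, where 0.138% of all 8690 genes did. At an unadjusted p under 0.05, 5 were higher and 4 lower, 12.2% of the 74 against 8.98% of all genes. The groups did not overlap in 11, or 14.9%, against 13.7%. The listed genes thus differed about as often as genes in general, and their median difference was -0.04.
The cytokines themselves were near the floor of the arrays: of 7, only *Il9* passed the filter, and *Il7* lay between 3.46 and 3.60 in all 6 arrays. Among the other receptor chains, 5 were tested and none differed beyond its spread. *Il4ra*, which pairs with the common γ chain for IL-4, had the largest difference, -0.25 (SE 0.19, limma adjusted p = 0.684), and *Crlf2*, which pairs with the *Il7r* product for the cytokine TSLP, differed by 0.08 (SE 0.21).
Among 6 other JAK and STAT genes, all had lower means, with a median of -0.23, and *Stat3* alone lay apart between the groups. *Stat4* differed by -0.27 (SE 0.16) and *Stat6* by -0.23 (SE 0.16). Of 14 other inhibitors, among them phosphatases and PIAS proteins, none lay apart, with a median of 0.03. The largest differences were those of the phosphatase genes *Ptpn1*, *Ptpn2* and *Ptprc*, at -0.20, -0.19 and 0.18. *Socs2*, another STAT5 target, differed by 0.03 (SE 0.31).

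In the adaptor and phosphoinositide 3-kinase list, 4 of 13 genes lay apart, against 13.7% of all genes. *Grb2*, the adaptor that leads to RAS, read 8.12, 7.98 and 8.07 against 8.70, 8.68 and 8.64. These values were tight in both groups, and the difference was -0.62 (SE 0.13, limma adjusted p = 0.212). *Fyn*, a SRC family kinase, differed by 0.79 (SE 0.33), with control replicate 3 at 6.40 and the other controls at 7.62 and 7.85, and *Pik3cd*, a kinase subunit of leukocytes, by -0.36 (SE 0.15).
The known response genes of STAT5 or IL-7 did not follow one direction. *Mcl1*, which keeps lymphocytes alive, read 10.10, 10.01 and 9.92 against 9.83, 9.83 and 9.36, apart, with a difference of 0.34 (SE 0.17, limma adjusted p = 0.586). *Bcl2l11*, which encodes the death protein BIM, differed by 0.58 (SE 0.22, limma adjusted p = 0.490) and *Tnfrsf4*, a costimulatory receptor, by -0.33 (SE 0.15). *Pim1*, a kinase gene and STAT5 target, had means of 10.39 ± 0.05 and 10.39 ± 0.18 (SD, n = 3 each), and *Bcl2* differed by -0.19 (SE 0.14).

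*Il7r* is a target of the factor FOXO1, and genes that share this control were listed together with FOXO genes themselves. *Rag1*, of the recombinase that cuts antigen receptor genes, read 11.16, 11.26 and 11.71 against 10.66, 10.59 and 9.95, and *Rag2*, its partner, 7.43, 8.09 and 8.13 against 7.23, 7.22 and 6.72. Both lay apart, with differences of 0.97 (SE 0.22) and 0.82 (SE 0.23) and limma adjusted p values of 0.273 and 0.348. *Sesn3*, a stress-response gene, had the next largest difference, 0.54 (SE 0.20, limma adjusted p = 0.487), with groups that overlapped. *Klf2*, a factor of lymphocyte exit that FOXO1 also switches on, was lower on average, at 6.22, 6.01 and 5.99 against 6.70, 6.84 and 6.25, a difference of -0.53 (SE 0.18, limma adjusted p = 0.455). Of 11 tested genes of this list, 3 lay apart, against 13.7% of all genes, and the median difference was -0.12. These 11 include *Foxo1*, *Foxo3* and *Foxo4*, at 0.19, -0.24 and -0.18, so the count and median are not of targets alone.
Of the transcription regulators of *Il7r*, *Ets1* differed by 0.49 (SE 0.23, limma adjusted p = 0.576), *Gabpa*, which binds the *Il7r* promoter, by 0.38 (SE 0.29), and *Runx3*, which alone of the 11 lay apart, by -0.18 (SE 0.14).

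**Figure D5:**
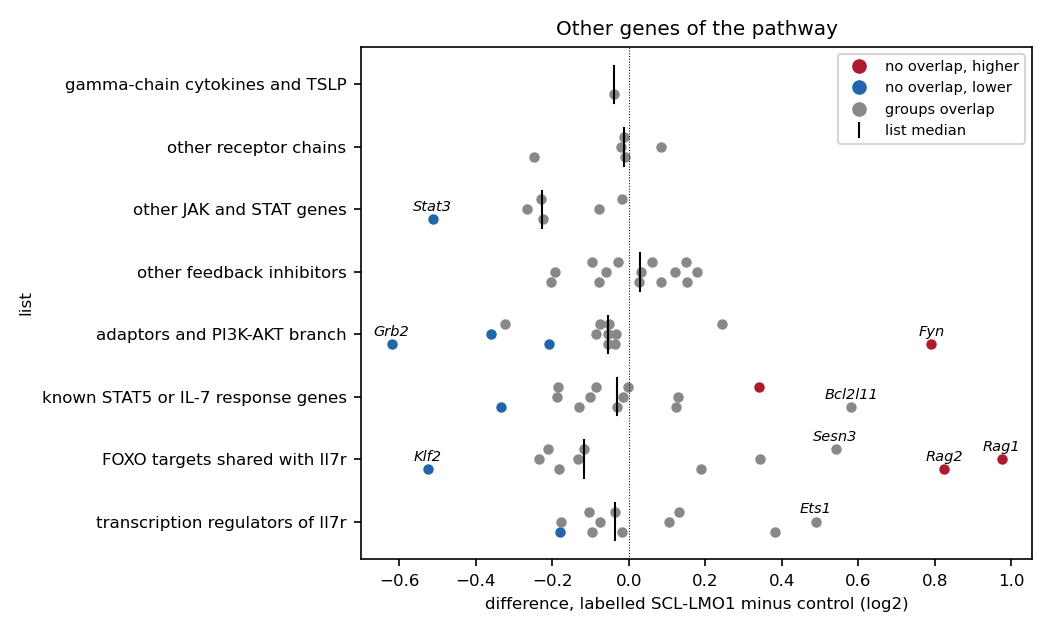
Difference, labelled SCL-LMO1 minus control (log2, x axis), of the tested genes of each pathway list (y axis), red or blue where the groups do not overlap and grey where they overlap, with black ticks for list medians and names for differences beyond 0.45. Rag1 lies farthest right at 0.97 and Grb2 farthest left at -0.62, and no gene passed limma.

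Markers of thymocyte stages and of other cells gave the following beside these values, and their part in them was not tested. Of the 10 DN3 markers, which include *Il2ra*, 1 passed limma, *Ptcra*, the pre-T cell receptor α chain, higher by 1.28 (SE 0.16, limma adjusted p = 0.0230). In 4 of the 10 the groups lay apart, *Ptcra*, *Rag1*, *Rag2* and *Dtx1*, against 13.7% of all genes. Of 9 tested markers of early progenitors and DN2 cells, 2 were higher and 2 lower at an unadjusted p under 0.05. Of all genes, 8.98% were at that level in either direction. Those higher were *Cd44* at 0.39 (limma adjusted p = 0.545) and *Bcl11a* at 0.39 (limma adjusted p = 0.455). Those lower were *Lyl1* at -1.22 (limma adjusted p = 0.0589) and *Hhex* at -1.03 (limma adjusted p = 0.120). In these 4 of the 9 the groups lay apart, against 13.7% of all genes. In the mast cell and basophil list *Cpa3*, a mast cell protease, fell by 2.53 (limma adjusted p = 0.000208), and 5 others did not pass. None passed limma in the other lists, where median differences were -0.26 over 7 markers of DN4 and double positive cells, -0.24 over 8 of B cells, 0.11 over 9 of NK and innate lymphoid cells, 0.02 over 3 of γδ T cells, -0.03 over 14 of macrophages and dendritic cells, 0.14 over 5 of erythroid cells and -0.14 over 8 of thymic stroma. In the NK and innate lymphoid list the groups lay apart in 4 of the 9, against 13.7% of all genes. *Gzma*, *Klrd1* and *Tbx21* were higher, by 0.58, 0.50 and 0.29, and *Klrk1* was lower, at -0.11. Rank products under 0.1 called *Lyl1*, *Hhex* and *Cpa3* lower and *Ptcra* and *Rag1* higher, and in the other lists *Ccr9*, a chemokine receptor, at -0.76, *Ms4a1*, which encodes CD20, at -0.77 and *Slc4a1*, the red cell anion exchanger, at 1.07. Under 0.01, *Lyl1*, *Hhex*, *Cpa3* and *Ptcra* were still called.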

How the data were processed

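RNA of thymocytes had been hybridized to Affymetrix mouse arrays. The deposited values are log2 expression, which the authors obtained by RMA in the affy package; tool versions are not given in the sources used here. Their filter on MAS5 absent calls was not repeated, since the calls cannot be remade from these values. In the platform annotation 20393 probe sets carry a single gene name, 691 carry more and 1606 carry none, with 64 controls. RefSeq held the gene number of 20364 of the first kind, which changed 0 symbols.

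Probe sets in which at least 3 of the 6 arrays reached the 40th percentile of that array entered limma 3.58.1 (R 4.3.3), with 3 arrays in each group, no covariate and a Benjamini-Hochberg adjusted p under 0.05 over all probe sets. Genes of the lists were read by the probe set with the highest mean and keep their p over all probe sets. Rank products used the 9 pairwise differences and 100 permutations. The scripts were tested on simulated data. Intervals are at 95%. The text names every member, up to 3 genes of each pathway list and up to 2 of each marker list among those with the largest differences, the genes that passed, and the 5 genes most like *Il7r* and *Il2ra*. *Klf2*, *Pim1*, *Bcl2*, *Socs2* and other genes outside this rule were named after their values were seen. The members and lists were chosen with earlier results of these data known. Alternatives were the filter, scaling, variance model, blocks, probe set choice, threshold, test and leaving out each array. Rank products under 0.01 were added after seeing the data. The number of arrays limits the precision.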

Additional observations from a re-analysis of the deposited data

How the results depend on the processing

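No member probe set passed limma under the alternatives, save with array weights, where 2 passed (both higher, *Il7r* and *Socs3*), and by rank products, where 1 did (*Il7r*). Of the pathway lists, 4 probe sets passed higher (*Rag1*, *Rag2*, *Sesn3* and *Bcl2l11*) and 2 lower (*Grb2* and *Klf2*) with array weights, and 1 higher by rank products (*Rag1*). Over all probe sets, 7 passed higher and 7 lower. Array weights gave 274 higher and 86 lower, rank products 49 and 61 (17 and 15 under 0.01, a level chosen after seeing the data, with 0 members), another quantile normalization 11 lower and the hybridization set as a block 12 lower. With 1 array left out the counts ran from 2 to 8 higher and from 3 to 10 lower, lowest without control replicate 2. The causes were not tested.

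The replicate number as a block left 3 higher. Same-numbered arrays had residual correlations of -0.63, 0.05 and -0.38, and the numbering was therefore not treated as pairing.

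Between the alternative settings, signs turned in *Il2ra*, *Jak1* and *Jak3*; between the hybridization sets, also in *Il7r* 1448576_at (0.94 and -0.12). *Il2ra* 1420692_at was at -0.15 after quantile normalization and ran from -0.16 to 0.28 with 1 array left out, and 1420691_at from -0.31 to 0.0855. *Jak1* 1433803_at was at 0.0434 with arrays centred on their medians and 0.0330 with hybridization sets blocked, and ran from -0.0747 to 0.10 with 1 array left out, and 1433805_at from -0.36 to 0.0049. *Jak3* was at 0.0331 with centring and 0.0642 with array weights, and ran from -0.0629 to 0.0355 with 1 array left out.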
